A study of Mus musculus with 10 samples.

Results

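The liver makes bile acids from cholesterol, and the enzymes that rework the sterol ring set how many bile acids are made and of which kind. A group of 9 such genes was followed, namely *Cyp7a1*, *Cyp8b1*, *Cyp7b1*, *Cyp27a1*, *Cyp39a1*, *Hsd3b7*, *Akr1d1*, *Akr1c14* and *Cyp2c70*. They are the enzymes that hydroxylate, oxidise or reduce the ring, together with *Cyp27a1*, which hydroxylates the side chain, and *Cyp2c70*, which makes the muricholic acids of rodents. All 9 were measured, of 22180 genes in all, each by 1 probe set that carries its symbol alone.

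In the classic pathway, CYP7A1 adds the first new hydroxyl group to the cholesterol ring, the rate-limiting step. In the alternative pathway, a side chain hydroxylase such as CYP27A1 acts on cholesterol and the ring is then hydroxylated by CYP7B1, while CYP39A1 does the same for an oxysterol that reaches the liver from the brain. HSD3B7 oxidises the ring, AKR1D1 and a liver 3-alpha-hydroxysteroid dehydrogenase of the AKR1C family, AKR1C14 in the mouse, reduce it, and CYP8B1 adds the hydroxyl group that makes cholic acid rather than chenodeoxycholic acid. In mice CYP2C70 turns chenodeoxycholic acid into muricholic acids. Bile acids that return to the liver repress *Cyp7a1* and *Cyp8b1* through the receptor FXR.

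Liver RNA of 10 mice was hybridised to Affymetrix Mouse Gene 2.0 arrays, 1 array per mouse. The 4 controls (males 1 and 2, females 3 and 4) are called wild type in the labels and, by the study's methods, carried the floxed *Vps33b* alleles without Cre (*Vps33b* fl/fl), and the 6 knockout mice (males 1, 2 and 3, females 4, 5 and 6) carried the same alleles with AlfpCre (*Vps33b* fl/fl-AlfpCre), a recombinase line active in hepatocytes and bile duct cells, so that other cells of the liver keep the gene. Both were on a C57BL/6J background. All 10 mice, controls included, ate chow with 0.5% cholic acid. The labels give the feeding as from 10 weeks of age and for 2 weeks. For cholic acid feeding in general, the methods give another starting age and length. For the arrays the paper gives a range of ages at sacrifice, which includes the age in the labels. The methods describe the controls as littermates of the same age, and which mice share a litter is not given in the sources used here. No liver from mice on plain chow is in the comparison, so every level below is one under bile acid feeding.

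Values are log2 expression after RMA, and each fold change is knockout minus control on that scale, from limma with terms for genotype and sex, with p-values adjusted over all 22180 genes and a threshold of 0.05. Any 2 arrays correlated at 0.982 to 0.991. The 3 measured Y-linked genes read 3.38 to 4.51 in females, which lack them, and this range serves as a rough background. It is not the floor of the arrays, since the lowest value of any probe set was 1.76. Whether other transcripts add to these readings was not tested. The Y-linked genes matched the sex label of 10 of 10 mice. *Vps33b* itself read 9.12 to 9.15 in controls and 8.92 to 9.39 in knockout mice (log2 fold change 0.08, adjusted p = 0.739). Where its probes lie relative to the deleted exons is not given in the sources used here, so this checks nothing about the labels.

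Of the 9 ring enzymes, 3 were lower in knockout liver, 0 were higher and 6 did not pass. The 3 that fell were *Cyp39a1*, *Akr1c14* and *Hsd3b7*. Over all genes 1.14% fell and 3.11% rose, 4.25% together. These shares are larger among genes with a mean above the median, which leaves out *Cyp7a1* and *Cyp8b1*. Tested alone, 409 of those genes fell and 807 rose, while the test of all 22180 genes gave 252 and 690. Of the 7 members among those genes 4 fell, a count not to be set against the 1.14%, which is the share of all genes. The log2 fold changes of the 9 ran from -0.77 to 0.07 with a median of -0.29, against a median of -0.01 over all genes, and 7 of the 9 were negative. At an unadjusted p under 0.05 in limma, 6 of the 9 were lower and 0 higher. Of all 22180 genes, 1701 were lower and 2140 higher by that measure (17.3% together). In 5 of the 9 every knockout mouse lay below every control of its own sex (*Cyp27a1*, *Cyp39a1*, *Hsd3b7*, *Akr1d1* and *Akr1c14*), which 3.72% of all genes did, and in 0 of the 9 did every knockout mouse lie above, which 5.2% of all genes did. In 3 of them (*Cyp39a1*, *Hsd3b7* and *Akr1d1*) every knockout mouse lay below every control of either sex (1.93% of all genes), and in 0 above (3.39%). The calls rest on few mice. The number of lower members was 0 without control 2, control 4 or knockout 2 and 1 without knockout 4 or knockout 5.

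**Figure D1:**
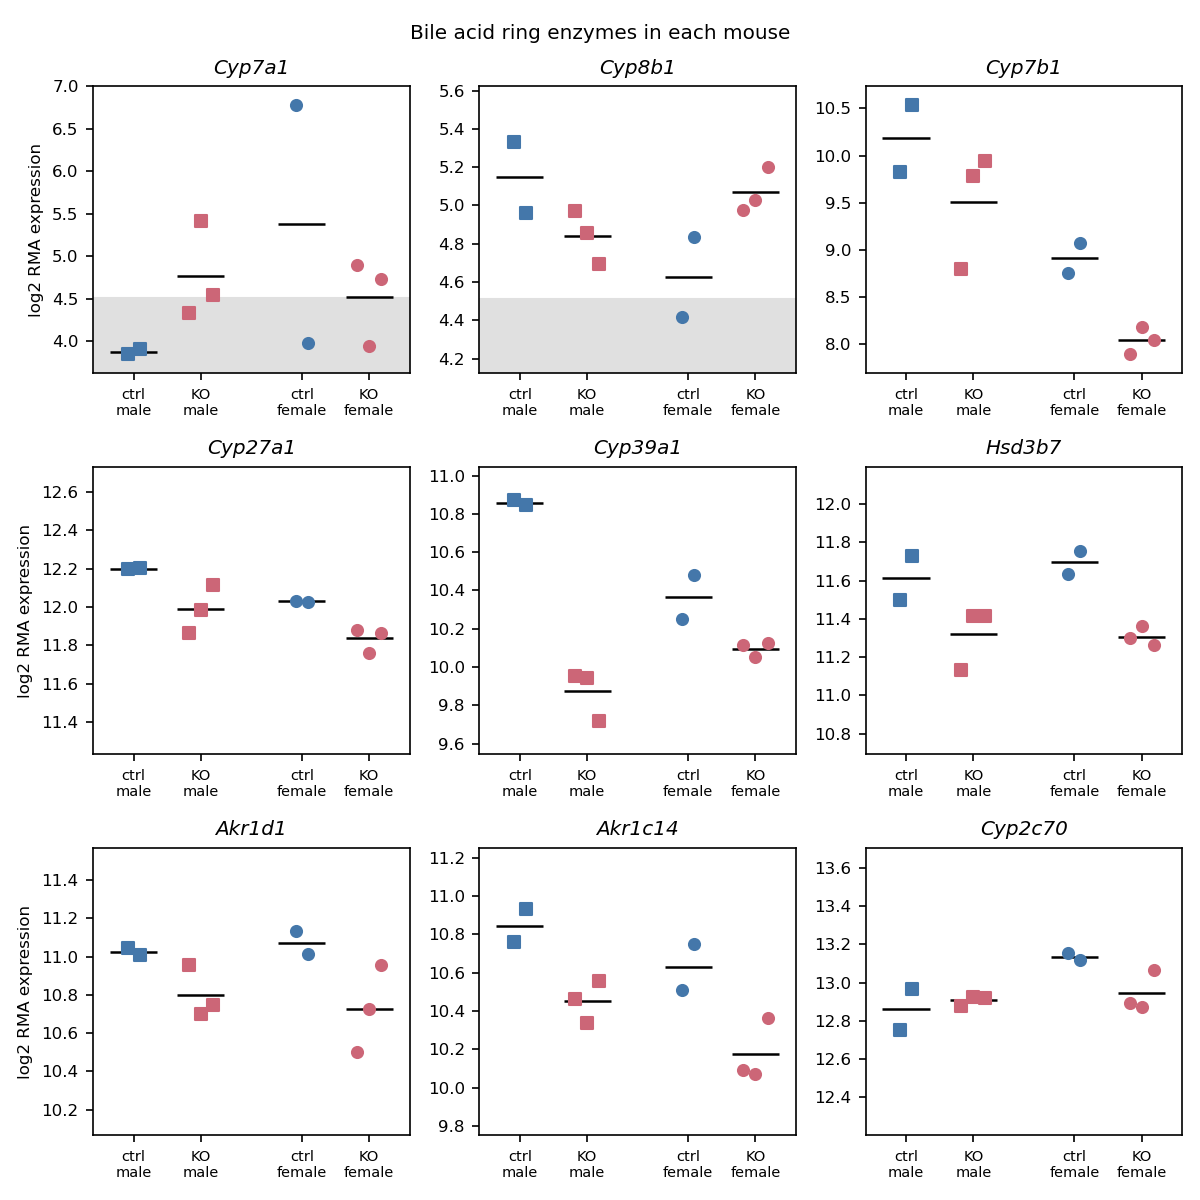
Log2 RMA expression of each of the 9 ring enzymes (vertical axis, a scale of its own in each panel) in control (ctrl, blue) and knockout (KO, red) mice, males as squares and females as circles, 1 symbol per mouse, with bars at the group means and, for *Cyp7a1* and *Cyp8b1*, the background range of 3.38 to 4.51 in grey. *Cyp7a1* and *Cyp8b1* read at most 5.42 except for 1 control female at 6.78, and the knockout mice lie below the controls of their own sex for *Cyp27a1*, *Cyp39a1*, *Hsd3b7*, *Akr1d1* and *Akr1c14*.

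*Cyp7a1*, the rate-limiting enzyme (probe set 17423051), read 3.85, 3.91, 6.78 and 3.99 in controls 1 to 4. In knockout mice 1 to 6 it read 4.33, 5.42, 4.55, 4.90, 3.94 and 4.74. Of the 4 controls, 3 thus read within the background range, as did 2 of the 6 knockout mice. The groups overlapped, and control female 3 stood far above every other mouse. The log2 fold change was 0.01 (standard error 0.50, 95% interval -1.09 to 1.11, adjusted p = 0.993), an interval that spans 0.471 to 2.16 times the control level. Without control 3 it was 0.75 (adjusted p = 0.174), and each of the remaining controls read lower than at least 5 of the 6 knockout mice. In males every knockout mouse read above both controls (0.89, standard error 0.64, adjusted p = 0.666). The share of all genes with such an order in males alone was not counted, and both control males read within the background range. In females the value was -0.86 (standard error 0.64, adjusted p = 0.608), and 0.54 without control 3. The difference between the sexes was 1.75 (95% interval -0.25 to 3.74, adjusted p = 0.832).

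*Cyp8b1*, the enzyme that decides for cholic acid (probe set 17532409), read 5.33, 4.96, 4.41 and 4.83 in controls 1 to 4. Knockout mice 1 to 6 had 4.97, 4.86, 4.70, 4.98, 5.03 and 5.20. All 10 mice thus lay within 1 log2 unit of each other and little above the background range, in which control 3 fell, the mouse with the highest *Cyp7a1*. Its log2 fold change was 0.07 (standard error 0.15, 95% interval -0.27 to 0.41, adjusted p = 0.88). By sex the values were -0.31 in males and 0.44 in females, where every knockout mouse read above both controls, and neither passed (adjusted p = 0.516 and 0.227). How many of all genes show that order in females alone was not counted. The difference between the sexes was -0.75 (95% interval -1.25 to -0.25) and did not pass either (unadjusted p = 0.00722, adjusted p = 0.748). At an unadjusted p under 0.05, 6.14% of all genes differed between the sexes in this way.

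Of the alternative pathway, *Cyp27a1*, the mitochondrial side chain hydroxylase (probe set 17214368), read 12.20, 12.20, 12.03 and 12.03 in controls 1 to 4. The 6 knockout mice, 1 to 6, read 11.86, 11.98, 12.12, 11.88, 11.76 and 11.86. The mice of each sex did not overlap, but the step was small. Between genotypes the log2 fold change was -0.20 (standard error 0.07, 95% interval -0.36 to -0.04), or 0.869 times the control level, and did not pass (adjusted p = 0.159, and 0.0575 to 0.396 over all alternatives).

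*Cyp7b1*, the oxysterol hydroxylase that follows it (probe set 17404245), had the most negative log2 fold change of the 9 and was the 1 member past the test for sex. It read 9.83 and 10.54 in control males and 8.79, 9.79 and 9.94 in knockout males. In females it read 8.75 and 9.07 in controls and 7.89, 8.19 and 8.05 in knockout mice 4 to 6. The genotypes overlapped in males, where knockout 3 read above control 1, but not in females. For females alone the share of all genes without overlap was not counted. The log2 fold change over all mice was -0.77 (standard error 0.21, 95% interval -1.24 to -0.31), or 0.585 times the control level, and missed the threshold (adjusted p = 0.0675). It passed without control 1 (adjusted p = 0.0340) and without knockout 3 (adjusted p = 0.0365), in a range of 0.0241 to 0.458 over all alternatives.

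*Cyp7b1* was higher in males than in females by 1.39 on the log2 scale (standard error 0.21, adjusted p = 0.0126), a 2.62-fold difference (95% interval 1.91 to 3.59). The males of each genotype read above all females of that genotype, and the call held without each of the 10 mice (adjusted p = 0.00133 to 0.0474). Over all genes, 0.207% were higher in males and 0.284% lower by the same test, 0.491% together. None of the other 8 ring enzymes passed the test for sex. The nearest was *Akr1c14* (0.25 on the log2 scale, male minus female, adjusted p = 0.316). In controls alone 0 of the 9 passed for sex (0.176% of all genes did), with *Cyp7b1* at 1.27 (adjusted p = 0.227) and *Cyp39a1* at 0.49 (adjusted p = 0.209). The genotype effects on *Cyp7b1* in males (-0.68) and females (-0.87) differed by 0.19 (95% interval -0.78 to 1.17, adjusted p = 0.970).

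*Cyp39a1*, the hydroxylase for the brain oxysterol (probe set 17337816), read 10.87, 10.85, 10.25 and 10.48 in controls 1 to 4. Values in knockout mice 1 to 6 were 9.95, 9.94, 9.72, 10.11, 10.05 and 10.13. The highest knockout mouse thus read below the lowest control. *Cyp39a1* fell by 0.63 on the log2 scale (standard error 0.13, 95% interval -0.91 to -0.34, adjusted p = 0.0238), to 0.647 times the control level. The call was lost without control 2 (adjusted p = 0.0967), control 4 (0.0597) and knockout 2 (0.0522), in a range of 0.00398 to 0.0967 over all alternatives.

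By sex, control males read *Cyp39a1* higher than control females, and the knockout males were the 3 lowest of all mice. The log2 fold change was -0.99 in males (standard error 0.12, adjusted p = 0.00980), and -0.27 in females (standard error 0.12, adjusted p = 0.315). In males *Cyp39a1* was the 1 member that passed, where 0.0812% of all genes were lower and 0.266% higher (0.347% together). In females 0 of the 9 passed, where 0.207% were lower and 0.699% higher (0.906% together). The call in males was lost without control 2 (adjusted p = 0.0940). The difference between the sexes, -0.72 (95% interval -1.08 to -0.36, unadjusted p = 0.00117), did not pass over all genes (adjusted p = 0.743), a test that 1 of the 22180 genes passed (0.00451%), so a difference between males and females was not established.

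**Figure D2:**
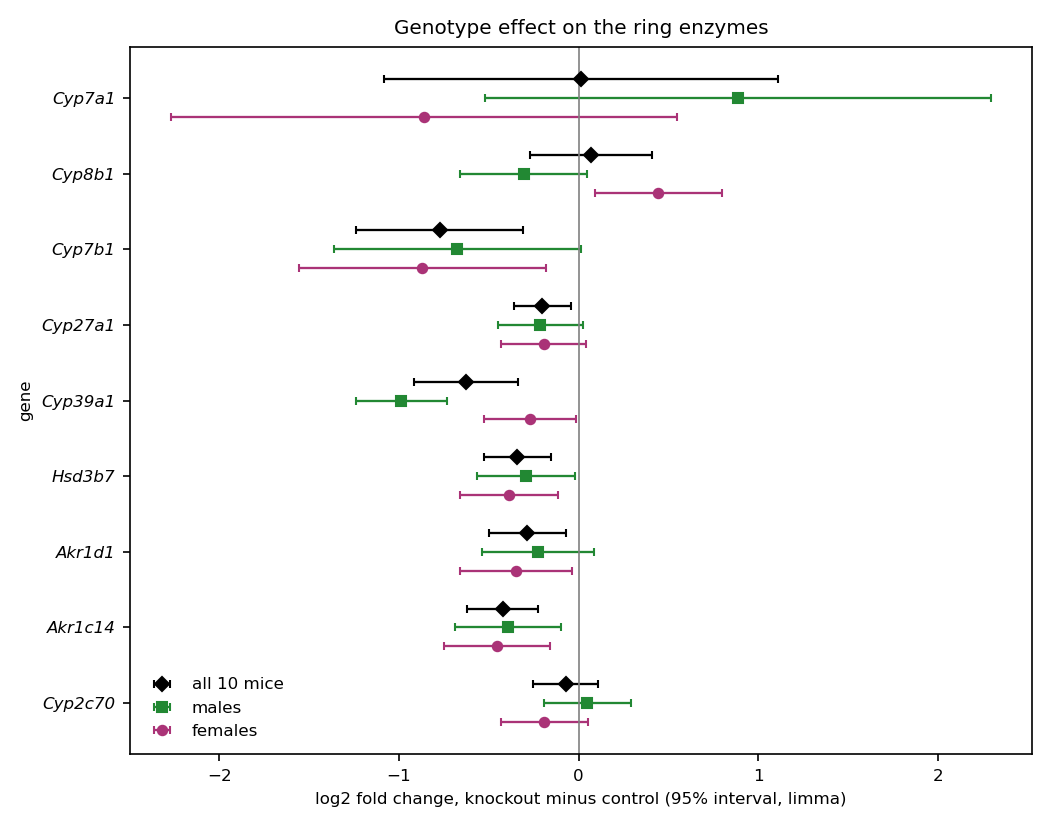
Log2 fold change of knockout minus control mice (horizontal axis) for each ring enzyme, with 95% intervals from limma, over all 10 mice (black diamonds) and within males (green squares) and females (purple circles). *Cyp39a1* stands at -0.99 in males and -0.27 in females, *Hsd3b7* and *Akr1c14* lie below 0 in both sexes, and *Cyp7a1* has the widest intervals.

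*Hsd3b7*, the dehydrogenase of the ring that both pathways share (probe set 17483471), read 11.50, 11.73, 11.64 and 11.75 in controls 1 to 4. In knockout mice 1 to 6 it read 11.13, 11.41, 11.41, 11.30, 11.36 and 11.26. The groups did not overlap, with the highest knockout mice just under control 1. *Hsd3b7* fell by 0.34 on the log2 scale (standard error 0.09, 95% interval -0.53 to -0.15, adjusted p = 0.0475), to 0.790 times the control level. This lies at the threshold. The call was lost without 8 of the 10 mice, and held without control 1 or knockout 3, with an adjusted p of up to 0.165 without control 2.

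*Akr1d1*, the reductase that bends the ring into the shape bile acids share (probe set 17457330), read 11.04, 11.01, 11.14 and 11.01 in controls 1 to 4. Knockout mice 1 to 6 had 10.96, 10.70, 10.75, 10.50, 10.73 and 10.96. All knockout mice lay below all controls, knockout 1 and knockout 6 by the least. Its log2 fold change was -0.29 (standard error 0.10, 95% interval -0.50 to -0.07) and did not pass (adjusted p = 0.141).

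*Akr1c14*, the hydroxysteroid dehydrogenase that completes the reduction of the ring (probe set 17284919), read 10.76, 10.93, 10.51 and 10.75 in controls 1 to 4. The 6 knockout mice, 1 to 6, read 10.46, 10.34, 10.56, 10.09, 10.07 and 10.36. The genotypes overlapped across the sexes, where knockout male 3 read above control female 3, but not within them. *Akr1c14* fell by 0.42 on the log2 scale (standard error 0.09, 95% interval -0.62 to -0.22, adjusted p = 0.0256), to 0.746 times the control level, with -0.39 in males and -0.45 in females. The call was lost without control 2 (adjusted p = 0.0981), control 4 (0.104), knockout 2 (0.0572), knockout 4 (0.0660) and knockout 5 (0.0542), and with no sex term (0.0739). The gene lies among close relatives of the AKR1C family, and whether its probes also read their transcripts was not tested.

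*Cyp2c70*, the muricholic acid enzyme (probe set 17364463), read 12.75, 12.97, 13.15 and 13.12 in controls 1 to 4. Values in knockout mice 1 to 6 were 12.88, 12.93, 12.92, 12.89, 12.87 and 13.07. The groups overlapped, and the knockout mice lay within the range of the controls. Between genotypes the log2 fold change was -0.07 (standard error 0.08, 95% interval -0.25 to 0.11, adjusted p = 0.736), so that the interval runs from 0.840 to 1.08 times the control level. Sharing of probes with other *Cyp2c* genes was not tested here either.

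**Figure D3:**
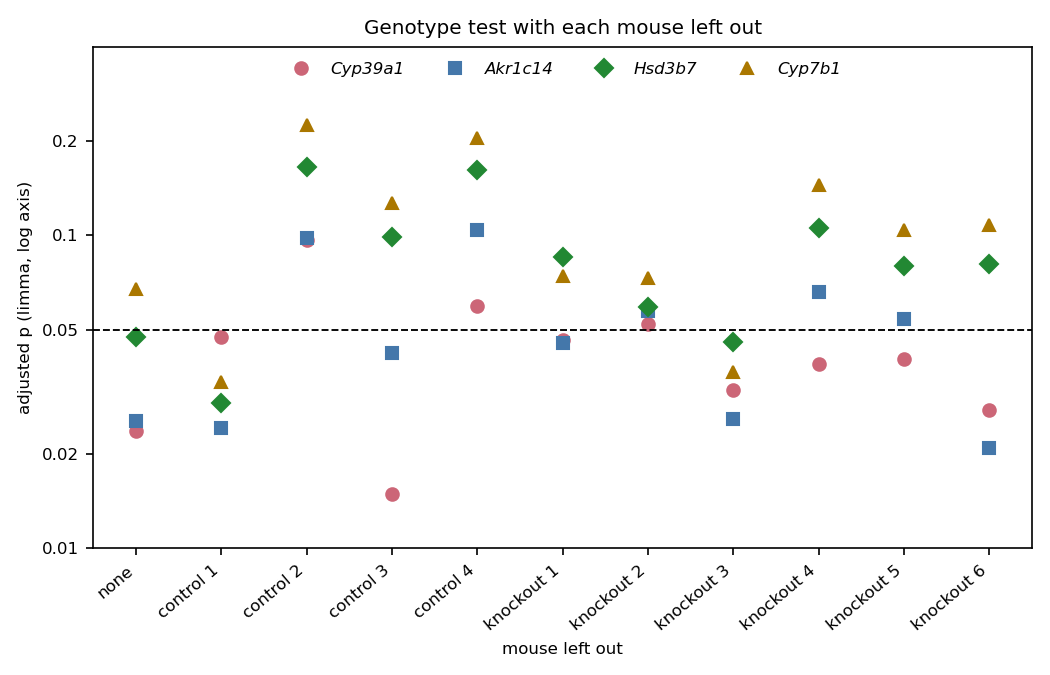
Adjusted p of the genotype effect from limma (vertical log axis) for *Cyp39a1*, *Akr1c14*, *Hsd3b7* and *Cyp7b1* with no mouse and with each of the 10 mice left out (horizontal axis), and the threshold of 0.05 as a dashed line. Without control 2, control 4 or knockout 2 all 4 genes lie above the line, and without control 1 or knockout 3 all 4 lie below it.

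The promoters were searched for letters of nuclear receptor sites known to act on bile acid genes. Windows of 250 bases before to 50 after the start, from RefSeq (GRCm38.p6), were at hand for 6 of the 9 genes, *Cyp8b1*, *Cyp27a1*, *Hsd3b7*, *Akr1d1*, *Akr1c14* and *Cyp2c70*. The letters CAAAGTCCA, the core bound by HNF4A, stood in *Cyp8b1* and *Cyp2c70*, against 0.475% of 32851 windows of all genes, both strands searched. They lie 67 to 59 bases before the start in *Cyp8b1* and 64 to 56 bases before it in *Cyp2c70*, on the gene's own strand. TCAAGGNCA, a site of NR5A2 (1.62% of all windows), AGGTCA repeated directly after 1 base of any kind (0.0396%) and AGGTCA followed after 1 base by its reverse complement, the inverted repeat bound by FXR (0.00913%), were in 0 of the 6. No further match overlapped those given. A match is a description of the letters, not a site shown to be bound. The 150 bases before the start are shown for the 2 genes with a match, neither of which passed the test for genotype, with the HNF4A core in capitals, and for *Hsd3b7* and *Akr1c14*, the genes with a window that fell. *Cyp8b1* is chr9:121916306-121916455, minus strand, *Cyp2c70* chr19:40187287-40187436, minus strand, *Hsd3b7* chr7:127800459-127800608, plus strand, and *Akr1c14* chr13:4059441-4059590, plus strand. The *Akr1c14* window lies inside the span annotated for the gene (chr13:4048991-4090560), at a start within it. The *Cyp27a1* window also lies inside its gene's span, and that of *Akr1d1* in part. For *Akr1c14* and *Cyp27a1* the bases before the span were not searched.
Cyp8b1: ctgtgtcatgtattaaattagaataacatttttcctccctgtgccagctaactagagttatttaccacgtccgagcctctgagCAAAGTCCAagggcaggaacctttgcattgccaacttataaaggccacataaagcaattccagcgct
Cyp2c70: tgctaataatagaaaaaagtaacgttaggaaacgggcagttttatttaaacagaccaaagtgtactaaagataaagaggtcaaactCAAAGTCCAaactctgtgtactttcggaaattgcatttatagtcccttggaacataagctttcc
Hsd3b7: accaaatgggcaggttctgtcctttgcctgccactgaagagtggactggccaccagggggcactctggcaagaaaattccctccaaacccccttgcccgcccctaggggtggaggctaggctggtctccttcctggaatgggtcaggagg
Akr1c14: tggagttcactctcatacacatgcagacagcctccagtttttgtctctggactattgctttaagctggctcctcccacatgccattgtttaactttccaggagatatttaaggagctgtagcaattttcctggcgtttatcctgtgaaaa

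The remaining steps of the pathway were read in the same fit. Of 8 measured genes of side chain shortening and amidation, 1 was lower, 0 were higher and 7 did not pass, with a median log2 fold change of -0.13 and all 8 negative. The gene that fell was *Abcd3*, a transporter that carries bile acid intermediates into the peroxisome (-0.38, standard error 0.08, adjusted p = 0.0272). Its call was lost without control 2, control 4, knockout 2, knockout 4 or knockout 5. Of 5 other sterol and bile acid hydroxylases, 0 passed in limma and 1 had an unadjusted p under 0.05, *Cyp46a1*, which makes the brain oxysterol (-0.55, adjusted p = 0.236). *Cyp3a11*, which hydroxylates bile acids for removal, followed (0.10, adjusted p = 0.691). *Cyp2a12*, which in mice puts back the ring hydroxyl group that gut bacteria remove, was singled out after its value was seen (-0.06, standard error 0.07, adjusted p = 0.747). Of 3 electron donors of the P450 enzymes, 0 passed in limma and 0 had an unadjusted p under 0.05. The closest were *Cyb5a*, cytochrome b5 (-0.03, adjusted p = 0.874), and *Fdx1*, the ferredoxin that serves CYP27A1 (-0.03, adjusted p = 0.901).

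Of 15 measured regulators, 1 was lower, 0 were higher and 14 did not pass, with a median of -0.09 and 13 negative values. At an unadjusted p under 0.05 in limma, 4 were lower and 0 higher, where 1701 of all 22180 genes were lower and 2140 higher. The regulator that fell was *Nr1i3*, the nuclear receptor CAR (-0.72, standard error 0.13, adjusted p = 0.0128). Its call was lost without control 2 or control 4 and with no sex term. The FXR gene *Nr1h4* (-0.34, adjusted p = 0.146), its target *Nr0b2*, a repressor of *Cyp7a1* (-0.28, adjusted p = 0.503), and *Klb*, the co-receptor for the gut hormone that represses *Cyp7a1* (-0.51, adjusted p = 0.138), did not pass, nor did *Hnf4a* (-0.09, adjusted p = 0.669). *Nr5a2*, the gene of a receptor whose site was sought in the promoters, did not pass either (-0.25, adjusted p = 0.171). In it every knockout mouse read below every control of either sex, which 1.93% of all genes did. *Nr1h4*, *Nr0b2*, *Klb*, *Hnf4a* and *Nr5a2* were singled out after their values were seen.

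**Figure D4:**
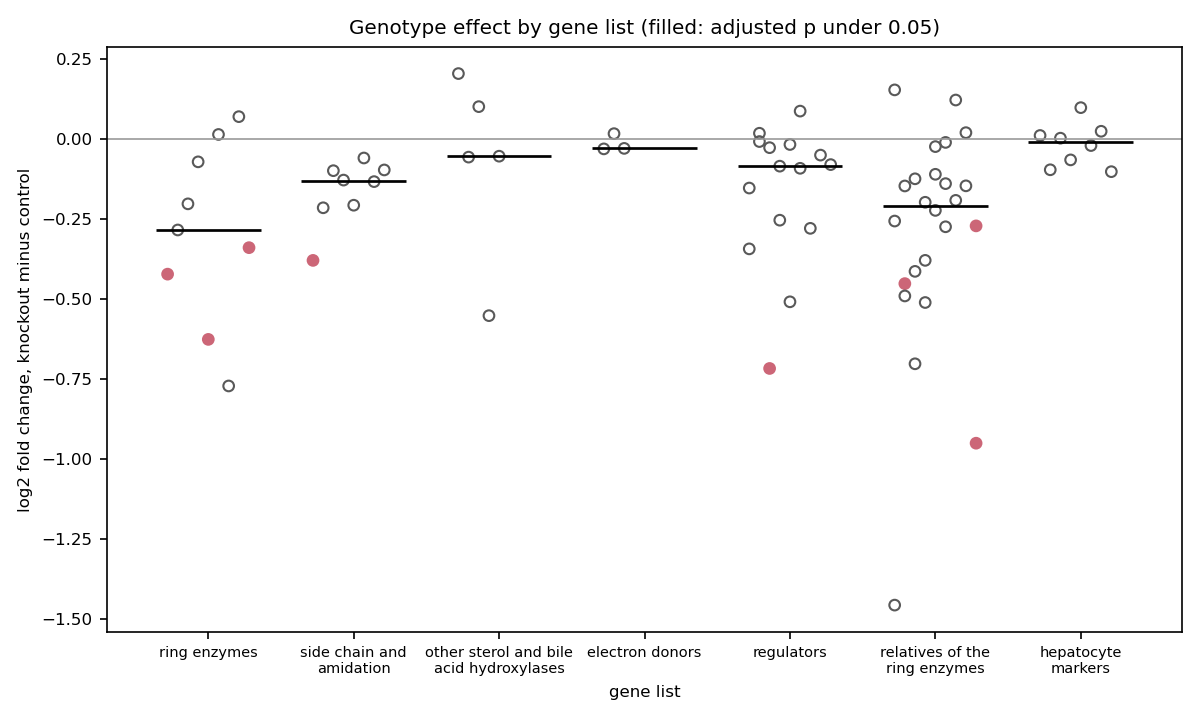
Log2 fold change of knockout minus control (vertical axis) for each gene of 7 lists (horizontal axis), filled red where the adjusted p from limma was under 0.05, with a bar at each list's median. The 9 ring enzymes have a median of -0.29, the 8 side chain and amidation genes -0.13, the 15 regulators -0.09 and the 8 hepatocyte markers -0.01.

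In whole liver, fewer hepatocytes and less RNA per hepatocyte cannot be told apart. Of 8 measured hepatocyte markers, 0 passed in limma and 0 had an unadjusted p under 0.05. The log2 fold change was positive in 4 and negative in 4, with a median of -0.01. The nearest to the threshold, all negative, were *Ttr* (-0.10, adjusted p = 0.499), *Apoa1* (-0.10, 0.588) and *Asgr1* (-0.07, 0.768). The summed log2 level of all 8 was 16.03 to 16.07 in controls and 15.95 to 16.06 in knockout mice. The brightest of them lie near the top of the scale, with *Alb* at a mean of 14.01 where the highest value of any probe set was 14.06, and whether such probe sets could still show a difference was not tested. Some markers of other liver cells rose with genotype, where 3.11% of all genes rose. Negative values, none past the threshold, were those of *Lrat* (-0.14, stellate cell), *Cd79a* (-0.06, leucocyte) and *Kdr* (-0.01, endothelial), named here for their sign. Of 5 bile duct cell markers 3 rose (*Epcam*, 1.14, *Krt19*, 0.52, and *Sox9*, 1.09), with a summed log2 level of 8.62 to 9.26 in controls and 9.70 to 10.19 in knockout mice. Of 8 macrophage markers 3 rose (*C1qa*, 0.57, *C1qb*, 0.58, and *Cd68*, 1.21), with a summed log2 level of 12.22 to 12.87 in controls and 12.91 to 13.49 in knockout mice. Of 7 stellate cell and fibroblast markers 3 rose (*Col3a1*, 0.71, *Col1a1*, 0.91, and *Pdgfrb*, 0.71), with levels of 10.05 to 10.60 and 10.40 to 11.06. Of 6 other leucocyte markers 1 rose (*Ptprc*, 0.70), followed by *S100a8* (0.49, adjusted p = 0.265) and *Cd3e* (0.19, 0.439), with levels of 8.005 to 8.54 in controls and 8.49 to 8.97 in knockout mice. Of 5 endothelial markers 1 rose (*Cdh5*, 0.34), followed by *Lyve1* (0.52, adjusted p = 0.0604) and *Stab2* (0.15, 0.349), with levels of 10.89 to 11.35 and 11.35 to 11.54. No marker of these lists read 0, since RMA values have no zero. With each array scaled to the mean log2 value of its hepatocyte markers, which shifted the median of all genes by 0.02, *Cyp39a1* and *Akr1c14* kept their calls and *Hsd3b7* did not (-0.32, adjusted p = 0.0786). This scaling rests on markers of which the brightest lie near the top of the scale, and it moved the values little. It therefore cannot decide the part of other cell types in the lower values, which was not tested.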

How the data were processed

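Liver RNA was labelled with biotin and each mouse had an array of its own. The authors deposited log2 values for each probe set, computed by RMA in oligo, which corrects background, quantile-normalises the arrays and summarises probes. The versions they used are not stated in the sources at hand. Of 41345 probe sets, 23521 have 1 gene symbol in the platform annotation, 1820 have several and were left out, and 16004 are not listed there. The probe set with the highest mean stood for each of 1082 genes with more than 1. All 22180 genes were tested in limma (version 3.58.1, R 4.3.3) for genotype and sex together, with empirical Bayes moderation, and p-values were adjusted by Benjamini-Hochberg. Effects within each sex came from 1 fit of 4 groups. The members and lists were chosen with earlier results of these data known. Named genes are the 9 members, the genes of the pathway lists past the threshold or else the 2 nearest to it, and the 3 with the smallest adjusted p of the relatives and of each cell marker list. Others are marked where named. Alternatives covered the sex term, the choice of probe set, dim genes, scaling, moderation, array weights, a block by mouse number and leaving out each mouse. The pipeline was tested on simulated data, where a minimum share of calls was required only for the largest planted changes. Those exceed the genotype effects of the members over all mice. How often changes of the members' size are called is not given here. The number of arrays limits the precision, and no slide or scan batch was known. Protein sequences were not used here.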

Additional observations from a re-analysis of the deposited data

Results flagged for a closer look

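*Cyp7a1* in control female 3 read 6.78, while the nearest other control read 3.99, a gap of 95.3% of the range of the 4 controls. *Cyp2c70* in knockout female 6 read 13.07, with the next knockout mouse at 12.93, a gap of 71.8% of the range of the 6 knockout mice. These values were picked out because the gap to the nearest mouse was large against the range of the group. For *Cyp2c70* that range was narrow, and knockout female 6 lay within the range of the controls (12.75 to 13.15). Over the 18 groups examined (9 genes in 2 genotypes), chance alone picks out about 5% of groups. Both groups mix the sexes.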

How the results depend on the processing

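The number of higher members was 0 in all alternatives. That of lower members (3) was 0 to 4 with 1 mouse left out and 1 with the replicate number as a block, which called *Cyp7b1*. The numbers are shared by mice of opposite sex (number 3), and 0 of 4 controls correlated best with the knockout mouse of its own number. With this replicate block, *Cyp39a1* (-0.73, adjusted p = 0.0783), *Hsd3b7* (-0.38, 0.171) and *Akr1c14* (-0.52, 0.112) were not called, *Cyp8b1* turned to -0.11 and *Cyp7a1* moved from 0.01 to 0.97 (adjusted p = 0.0819). *Cyp7b1* passed with dim genes left out (adjusted p = 0.0486), array weights (0.0241) and the block (0.0325), and *Hsd3b7* was lost with 4 groups (0.0577) and with every probe set tested (0.0507). *Cyp7a1* turned to -0.021 with arrays centred on their median. Over all genes, 690 were higher and 252 lower. With 1 mouse left out these numbers ran from 233 to 825 and from 47 to 449. With the block they were 208 and 49. The number of lower genes was 165 with no sex term, 409 with dim genes left out, 162 scaled to hepatocyte markers and 499 with array weights. Of side chain and amidation genes 0 were lower with the block or scaled to hepatocyte markers, and 0 to 1 with 1 mouse left out. Of regulators 0 were lower with no sex term and 0 to 1 with 1 mouse left out.

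Leaving out 1 mouse turned the sign of values that had not passed. The genotype effect ran from -0.32 to 0.75 for *Cyp7a1* and from -0.10 to 0.23 for *Cyp8b1*, that in females from -2.26 to 0.54 for *Cyp7a1* and that in males from -0.058 to 0.15 for *Cyp2c70*. The difference between the sexes ran from -0.16 to 0.55 for *Cyp7b1*, -0.083 to 0.043 for *Cyp27a1*, -0.019 to 0.21 for *Hsd3b7* and -0.063 to 0.18 for *Akr1c14*. The sex effect ran from -0.73 to 0.13 for *Cyp7a1*, -0.062 to 0.15 for *Cyp8b1*, -0.039 to 0.14 for *Cyp39a1*, -0.057 to 0.020 for *Hsd3b7* and -0.044 to 0.080 for *Akr1d1*. The cause of these changes was not tested.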

Other observations

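Of 24 measured relatives of the ring enzymes in the *Akr1c*, *Cyp2c*, *Hsd3b* and *Cyp27* families, 3 were lower, 0 were higher and 21 did not pass, with a median log2 fold change of -0.21 and 21 negative values. The 3 were *Cyp2c37*, a P450 that oxidises arachidonic acid (-0.95, standard error 0.19, adjusted p = 0.0193), *Cyp2c68* (-0.27, standard error 0.07, adjusted p = 0.0463) and *Akr1c18*, a dehydrogenase of progesterone (-0.45, standard error 0.08, adjusted p = 0.00891). *Akr1c18* read 4.07 in controls and 3.62 in knockout mice on average, within the background range. Which of these relatives share probes was not tested.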
